A study of Homo sapiens with 8 samples.

Results

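HRAS, BCL2, HIF1A, RB1, PDGFA, PDGFRB, MYB, SRC and RET are cancer genes whose promoters are known from in vitro work to hold sequences that fold into G-quadruplexes (G4s). These 9 genes were taken by name from the 20163 protein-coding genes of the annotation, by a rule that uses no measured value, though earlier results of these data were known when the list was drawn up. All 9 had 1 entry each. G4 sites had been mapped by G4 ChIP-seq in K562, a human chronic myelogenous leukemia line, and in HepG2, a human hepatocellular carcinoma line, both grown without treatment. The chromatin was fixed with formaldehyde, sonicated and treated with RNase A, and it was precipitated with BG4, an antibody that recognises the folded G4. Per line, 3 G4 ChIP libraries and 1 input library were listed, and the design text calls the libraries technical replicates. The study describes 8 replicates for K562 and 9 for HepG2, which are technical repeats within 3 independent experiments per line, so the calls behind an interval need not come from separate experiments. It also states that earlier G4 ChIP-seq data of K562 were considered, and whether these entered the K562 lists is not given. The high-confidence lists hold K562 stretches called in 5 or more of the 8 replicates and HepG2 stretches called in 6 or more of the 9, while 2 replicates sufficed for the lower-confidence lists.

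A G4 forms when runs of guanine on 1 DNA strand stack into planar tetrads, with the bases between the runs looped out. Such sequences are common near transcription start sites (TSSs). Antibody mapping in chromatin asks a different question from folding in a tube, namely whether the structure is found at that position in a given cell type. Within the list, HRAS encodes a small GTPase and SRC a tyrosine kinase of growth signalling. PDGFA encodes a secreted growth factor, while PDGFRB and RET encode receptor tyrosine kinases. HIF1A and MYB encode transcription factors, RB1 encodes the retinoblastoma protein that restrains cell cycle entry, and BCL2 encodes an inhibitor of apoptosis. RB1 is a tumour suppressor and not an oncogene.

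The lists hold interval positions only, with no height, no read count and no value per replicate. No spread between replicates could be computed, no difference between the lines could be tested, and the comparisons are descriptions. A gene without an interval is one where no peak passed in enough replicates. The depth is unknown, so this does not show that a G4 was absent. The counts of genes were read beside the same share over all protein-coding genes. Intervals were sought in the gene body plus 2 kb upstream of each TSS, and more narrowly in a promoter window from 2000 bp upstream to 500 bp downstream of the main TSS. Positions are on the GRCh37 (hg19) human genome, counted from the main TSS along the gene, with negative values upstream.

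The promoters were scanned for a G4 motif, here 4 or more runs of G on the same strand, each run 3 or more bases long and separated from the next by a loop of 1 to 7 bases. All 9 promoters held a motif, against 68.0% of all protein-coding promoters. The genes were chosen for this property, so the count is a check and not a result. For HIF1A and HRAS the motifs covered by an interval are shown, and for each other gene the motif closest upstream of the TSS and outside annotated exons, so that covered and uncovered sequences can be set side by side. They come from the GRCh37 sequence and are written 5′ to 3′ on the G-rich strand, with the runs of G in capitals.
HIF1A, chr14:62162154-62162182, minus strand: GGGcgcgcGGGGaGGGGagaGGGGGcGGG
HRAS, chr11:535532-535554, plus strand: GGGttgcGGGcgcaGGGcacGGG
HRAS, chr11:535463-535483, plus strand: GGGGcGGGGcGGGGGcGGGGG
BCL2, chr18:60987499-60987531, minus strand: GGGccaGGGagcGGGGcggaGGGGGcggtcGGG
RB1, chr13:48877327-48877353, minus strand: GGGaaaggaaGGGaGGGagctgtGGGG
PDGFA, chr7:559529-559572, minus strand: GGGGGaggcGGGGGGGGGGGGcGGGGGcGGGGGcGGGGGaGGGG
PDGFRB, chr5:149535510-149535540, plus strand: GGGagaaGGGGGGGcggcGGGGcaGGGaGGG
MYB, chr6:135502190-135502227, minus strand: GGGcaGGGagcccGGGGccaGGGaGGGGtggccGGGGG
SRC, chr20:35974451-35974473, minus strand: GGGGaGGGGaagaggaGGGaGGG
RET, chr10:43572433-43572482, minus strand: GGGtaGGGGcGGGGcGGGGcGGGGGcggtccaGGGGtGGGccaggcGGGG

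Of these 10 motifs, the one of HIF1A lay in an interval of both lines and both HRAS motifs lay in an interval of K562 alone. The motifs of BCL2, RB1, PDGFA, PDGFRB, MYB, SRC and RET lay in no interval of any list. The PDGFA and RET motifs are the longest shown and have 6 and 8 runs of G, yet no interval of either line was found nearer than 15.92 kb to the PDGFA TSS or 28.55 kb to the RET TSS.

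Across the full promoter windows, 34 motifs were found, and 31 of them lay in no interval. The share of all promoter motifs outside every list was not computed, so the 31 is not a result about these genes. The K562 high-confidence list covered 2 of the 34, against 11.5% of the 35972 motifs of all protein-coding promoters, and the K562 lower-confidence list covered 3, against 19.6%. The HepG2 high-confidence list covered 1, against 6.96%, and the HepG2 lower-confidence list covered the same 1, against 16.1%. Motifs of 1 promoter share a sequence neighbourhood and often an interval, so they are not independent of each other. The number per promoter ran from 1 in RB1 to 8 in HRAS and in SRC, with a median of 3 against 1 over all genes. Only 1.81% of all protein-coding promoters held 8 or more motifs, 16.2% held 4 or more as MYB and RET did, and 27.3% held 3 or more as PDGFA did. Since the genes were chosen for promoters with such sequences, these numbers are not a result about the group. Of the 34 motifs, 20 were on the template strand and 14 on the coding strand. That put 58.8% on the template strand, against 46.1% of the motifs of all promoters.

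**Figure D1:**
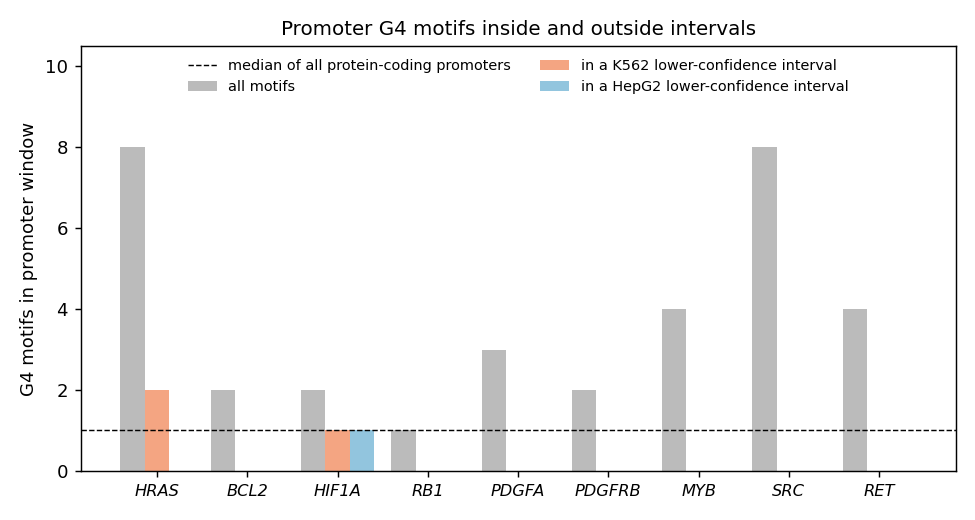
Bars give, for each gene, the number of G4 motifs in the promoter window (grey) and the number overlapped by a lower-confidence interval of K562 (orange) or HepG2 (light blue). The dashed line is the median of 1 motif over all protein-coding promoters. HRAS and SRC have 8 motifs each, of which K562 intervals cover 2 and 0, and HIF1A is the only gene with a covered motif in HepG2.

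Promoter windows with an interval were found for HRAS, HIF1A and MYB in the K562 high-confidence list, which is 3 of 9 genes against 33.0% of all protein-coding genes. RB1 joined them in the K562 lower-confidence list, giving 4 of 9 against 46.6%. In HepG2, only HRAS and HIF1A had a high-confidence promoter interval, which is 2 of 9 against 28.0%. With RB1 and SRC added, the HepG2 lower-confidence list gave 4 of 9, against 46.5%. All 4 shares were close to the background, so none of these counts is a result about the group.

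**Figure D2:**
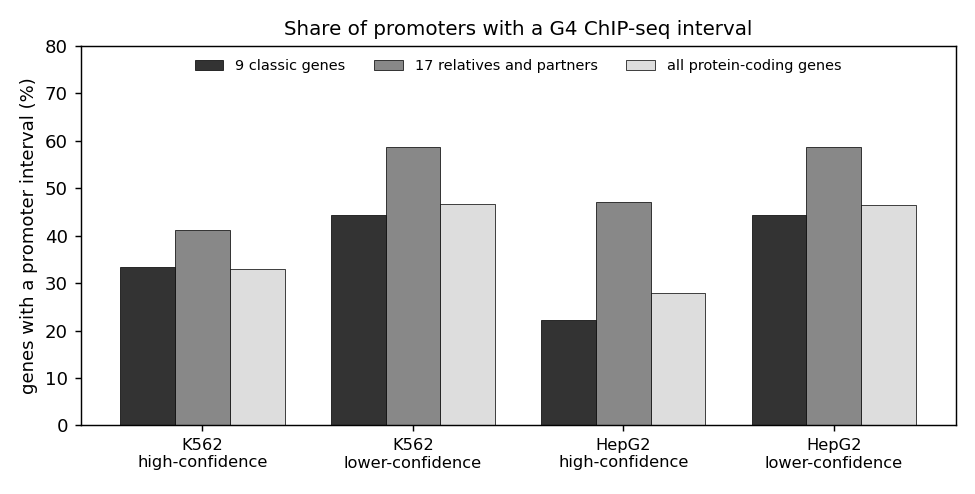
Bars give the percent of genes with an interval in the promoter window for the 9 classic genes, 17 family members and pathway partners, and all 20163 protein-coding genes, in each of the 4 lists. The 9 genes lie near the background in each list, and the 17 relatives, a list chosen with earlier results known, lie above both.

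The number of motifs did not order the 9 promoters by whether an interval was present. HRAS, MYB, SRC and RET hold 4 or more motifs, and 2 of these 4 had a K562 high-confidence promoter interval, against 43.9% of the 3271 promoters with as many motifs. The same 2 were in the K562 lower-confidence list, against 58.9%. In HepG2, 1 of the 4 had a high-confidence promoter interval, against 30.0%, and 2 had a lower-confidence one, against 53.5%. Among all genes, the share with a K562 high-confidence promoter interval was 19.1% without a motif, 33.7% with 1 motif, 41.8% with 2 to 3, 44.1% with 4 to 6 and 43.1% with at least 7. The corresponding HepG2 shares were 19.6%, 31.3%, 33.7%, 30.5% and 28.0%. At high confidence, neither RB1, with 1 motif, nor RET, with 4, had a promoter interval in either line. RB1 had a lower-confidence one in both lines and RET had none.

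**Figure D3:**
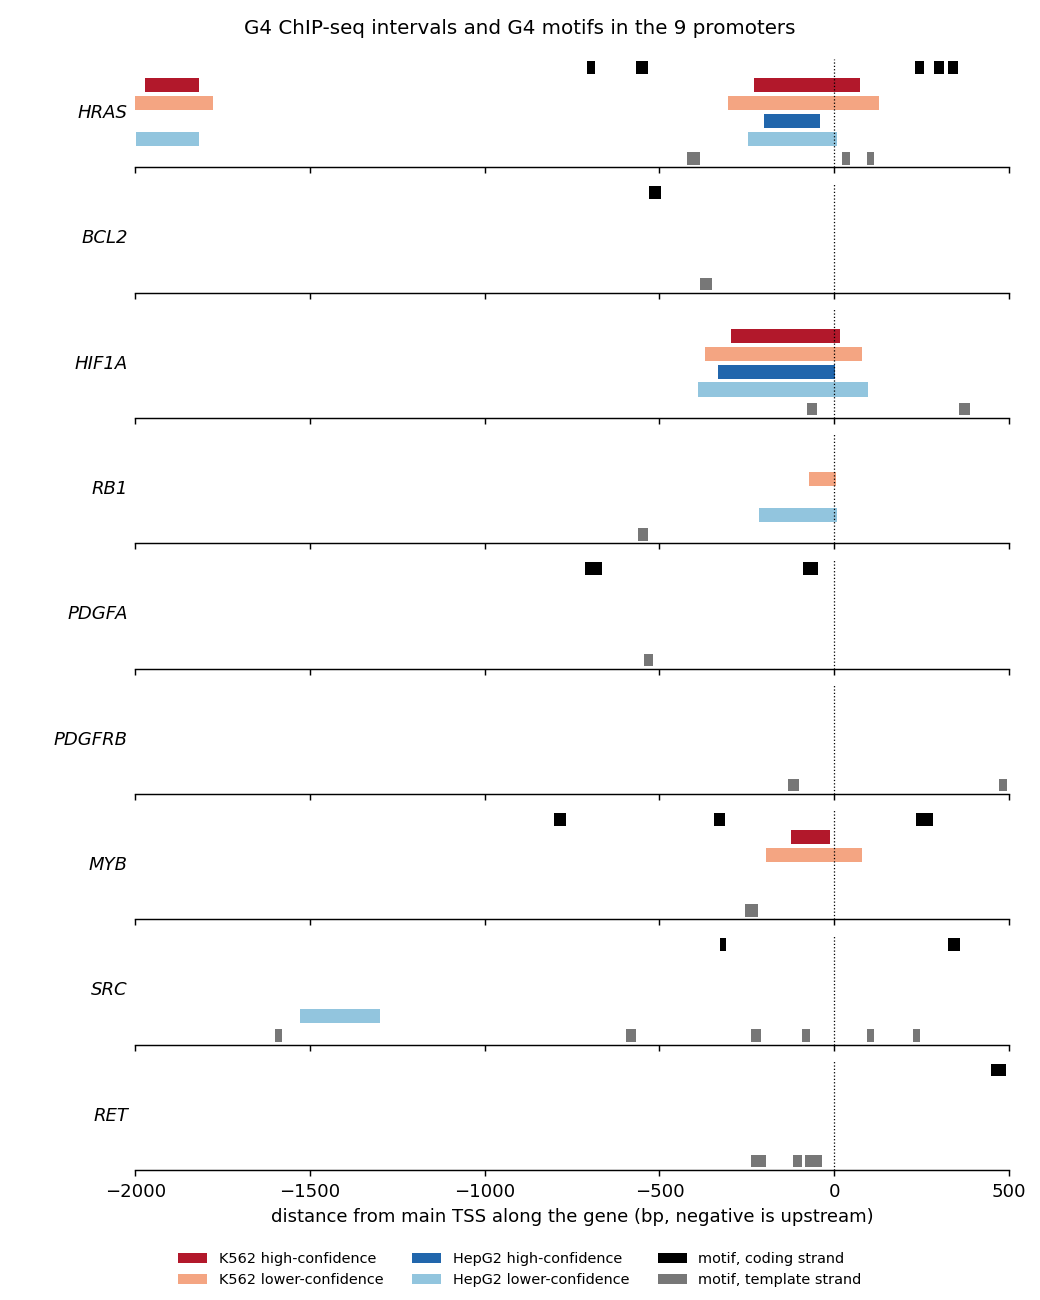
Each row is 1 promoter, from 2000 bp upstream to 500 bp downstream of the main TSS (dotted line). Coloured bars are the intervals of the 4 lists, and small boxes above and below them are motifs on the coding (black) and template (grey) strand. Intervals at the TSS are seen for HRAS, HIF1A, RB1 and MYB, and most motifs lie beside them and not under them.

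HIF1A, the oxygen-regulated subunit of hypoxia-inducible factor 1, had the only promoter motif that was covered in all 4 lists. The K562 high-confidence interval, chr14:62161936-62162247, spans 312 bp and the HepG2 one, chr14:62161900-62162232, spans 333 bp. They share 297 bp, have a GC content of 73.08% and 72.67%, and have their centres at -140 and -165. The lower-confidence intervals reach further on both sides, over 448 bp in K562 and 487 bp in HepG2. No other interval of any list was found in the HIF1A gene body. The covered motif lies at -77 to -49 on the template strand. A second motif, at 358 to 387 in an intron, was left 342 bp away from the K562 and 357 bp away from the HepG2 high-confidence interval. The promoter window is shared with HIF1A-AS1, an antisense lncRNA whose annotated start is at 379.

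The 295 bases of the K562 interval that lie upstream of the HIF1A TSS are shown on the coding strand, with the motif in capitals. The motif reads as C-rich here because its runs of G are on the opposite strand.
HIF1A, chr14:62161936-62162230, plus strand: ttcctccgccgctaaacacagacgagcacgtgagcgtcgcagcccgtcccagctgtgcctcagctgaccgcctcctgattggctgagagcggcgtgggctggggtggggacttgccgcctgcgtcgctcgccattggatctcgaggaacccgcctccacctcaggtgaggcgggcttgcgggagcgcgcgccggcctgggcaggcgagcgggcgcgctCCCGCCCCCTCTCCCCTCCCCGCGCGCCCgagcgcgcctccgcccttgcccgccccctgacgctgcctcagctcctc

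HRAS, which switches on growth signalling in its GTP-bound form, also had a promoter interval in all 4 lists, but the motifs under it differed between the lines. The K562 high-confidence interval, chr11:535502-535805, spans 304 bp, crosses the TSS and covers the motif at 22 to 44. The HepG2 high-confidence interval, chr11:535617-535777, spans 161 bp, lies wholly inside the K562 one, ends at -41 and covers no motif of this definition. In the lower-confidence lists the K562 interval grew to 433 bp and took in a second motif, at 93 to 113. The HepG2 one grew to 254 bp and ended 16 bp short of the first. The 2 covered motifs are in the 5′ UTR on the template strand. The other 6, of which 5 are on the coding strand, lay in no interval of either line. With loops of up to 12 bases, the 161 bp stretch did hold 1 motif.

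That HepG2 stretch, found in both lines, is shown on the coding strand of HRAS, without capitals because it holds no motif with loops of 1 to 7 bases. It has 8 runs of at least 3 G on the plus strand of the chromosome and 4 on the minus strand, but no 4 of them on the same strand lie close enough for such a motif. Its GC content is 75.78%.
HRAS, chr11:535617-535777, minus strand: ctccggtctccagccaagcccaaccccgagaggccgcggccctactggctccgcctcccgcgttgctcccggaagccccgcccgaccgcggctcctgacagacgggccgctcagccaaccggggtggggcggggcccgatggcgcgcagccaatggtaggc

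Another interval overlapped the upstream part of the HRAS window. It was found at chr11:537393-537548 in the K562 high-confidence list, centred at -1894, and at chr11:537393-537575 in the HepG2 lower-confidence list. Its K562 centre is at -149 from a TSS of HRAS and at -57 from the TSS of LRRC56, a gene that runs the other way, so it cannot be given to 1 of the 2 genes. An intronic interval of 48 bp, chr11:533202-533249, was in the HepG2 lower-confidence list alone and held 1 coding-strand motif.

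MYB, a transcription factor of immature blood cells, had an interval at its TSS in K562 and none anywhere in the gene in HepG2. The K562 high-confidence interval, chr6:135502323-135502434, spans 112 bp with its centre at -68, and the lower-confidence one, chr6:135502251-135502525, spans 275 bp. In HepG2, the nearest interval of either list was 126.3 kb from the TSS. A high-confidence promoter interval in K562 without any promoter interval in HepG2 was found for 3.18% of all protein-coding genes. A second K562 lower-confidence interval, chr6:135505088-135505205, lay in an intron at 2700. None of the 3 K562 intervals covered a motif. The 4 promoter motifs lay outside, the nearest at -256 to -219 and 24 bp from the lower-confidence interval.

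The K562 high-confidence interval of MYB is shown on the coding strand. It has 6 runs of at least 3 G on this strand and none on the other, but no 4 of them are spaced with loops of 1 to 7 bases.
MYB, chr6:135502323-135502434, plus strand: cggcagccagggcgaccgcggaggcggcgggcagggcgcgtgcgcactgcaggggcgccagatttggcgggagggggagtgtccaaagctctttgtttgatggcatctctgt

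MYB is also known for GGA repeats, in which pairs of G separated by A can fold in another way. Blocks of at least 4 GGA in a row were found in 3.88% of all promoters and in 3 of the 9, PDGFA, MYB and SRC. The genes were chosen for promoters known to fold, so this count is not a result about the group. MYB has 2 such blocks on the template strand, both with the letters below and both wholly inside the K562 lower-confidence interval. The high-confidence interval ended 33 bp short of the first of them. The block of PDGFA and both blocks of SRC lay in no interval of either line. The G pairs are in capitals.
MYB, chr6:135502467-135502478, minus strand: GGaGGaGGaGGa
SRC, chr20:35974488-35974505, minus strand: GGaGGaGGaGGaGGaGGa

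RB1 was in the lower-confidence lists of both lines at its TSS, and in neither high-confidence list there. The K562 interval, chr13:48877816-48877891, spans 76 bp and lies inside the HepG2 one, chr13:48877673-48877894, which spans 222 bp. This lower-confidence state in both lines was found for 5.38% of all genes. The only RB1 promoter motif, at -560 to -534, was 463 bp from the K562 and 320 bp from the HepG2 interval, so that neither covered it. The main start of RB1-DT, a divergent lncRNA, lies at -262, but RB1-DT has other annotated starts nearer to RB1. In each line the nearest annotated TSS to the interval centre is one of RB1-DT, though not the same one in both lines. It lies inside the interval of its line, 3 bp from the centre in K562 and 29 bp from it in HepG2. These intervals therefore cannot be given to RB1 alone. The 64 bases of the shared stretch that lie upstream of all RB1 exons are shown on the coding strand, without capitals since there is no motif in them.
RB1, chr13:48877816-48877879, plus strand: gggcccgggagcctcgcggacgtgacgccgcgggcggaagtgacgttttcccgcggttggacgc

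A further RB1 interval lay deep in the gene, at chr13:49106866-49107043 in the HepG2 high-confidence list and chr13:49106879-49107038 in the K562 lower-confidence list. Its HepG2 centre is at 229067 from the RB1 TSS, at -66 from the TSS of RCBTB2 and at -46 from that of a lncRNA (ENSG00000289900). It counts for RB1 because an annotated transcript other than the main one extends over it. RB1 is high-confidence in HepG2 by this interval alone.

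SRC, a non-receptor tyrosine kinase, had the most intervals of the 9 genes, and none was at its main TSS. In K562 there were 2 high-confidence intervals, at chr20:36007694-36007827 and chr20:36013239-36013330, both in introns and centred at 33217 and 38741. The K562 lower-confidence list added 1, for a total of 3. In HepG2 there was 1 high-confidence interval, chr20:36019549-36019764, in an intron at 45113, and 18 lower-confidence ones. Of these 18, 13 lay in introns and 2 were under 50 bp wide. A G4 motif was held by 1 of them, against 18.3% of all HepG2 lower-confidence intervals. A motif with runs of at least 2 G was held by 13, against 76.7%. Just 1 of the 18 overlapped a K562 interval, by 54 bp with the high-confidence list and 124 bp with the lower-confidence list. Of all HepG2 lower-confidence intervals, 36.6% overlapped a K562 lower-confidence one. In these lists the lines differed in where SRC was covered as well as in how often.

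The promoter window of SRC was reached only by a HepG2 lower-confidence interval, chr20:35973016-35973242, centred at -1414. It covers the start, at -1455, of an SRC transcript that codes for no protein. No interval covered any of the 8 motifs, of which 6 are on the template strand, and the nearest was 53 bp from that interval. No promoter interval in K562 with a lower-confidence one in HepG2 was found for 5.63% of all genes. HepG2 lower-confidence intervals had a density of 28.41 per 100 kb over SRC, 3.004 over chromosome 20 and 0.9163 over the genome. In K562 the densities were 4.734, 0.7981 and 0.6212. Chromosome and genome include sequence between genes, and no density over the windows of all genes was computed, so the contrast is not particular to SRC. The HepG2 lower-confidence density was higher over HRAS, at 42.37 per 100 kb, where 3 intervals lie in a window of 7.08 kb. At high confidence, SRC had 1.578 intervals per 100 kb in HepG2 and 3.156 in K562. The HepG2 density of chromosome 20 as a whole was therefore above that of the genome, and its part in the SRC count was not tested.

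**Figure D4:**
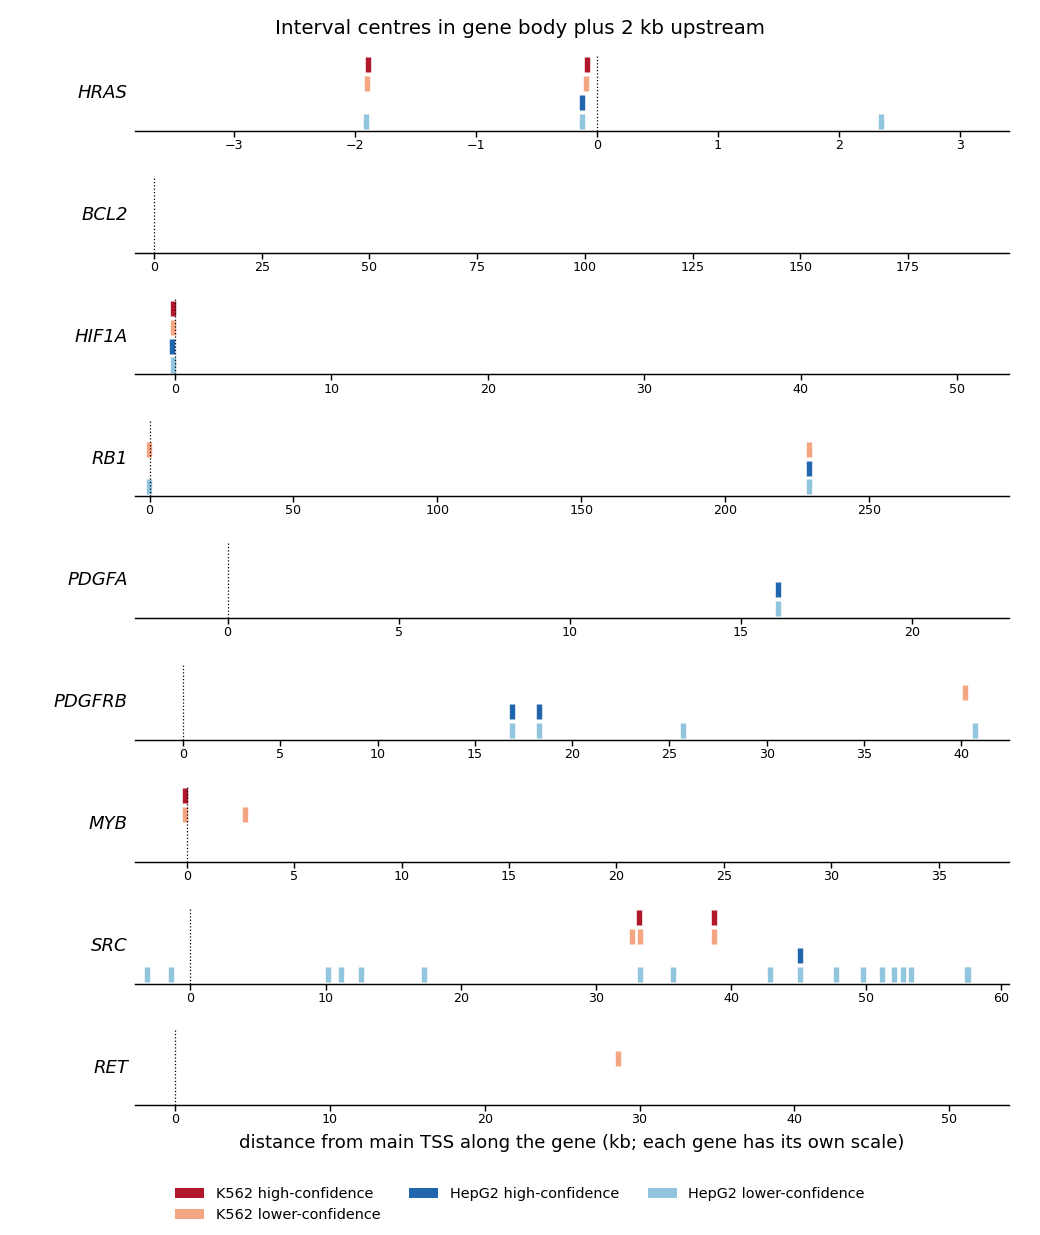
Ticks mark the centres of the intervals of the 4 lists along each gene and 2 kb upstream, in kb from the main TSS (dotted line), each gene on its own scale. HIF1A has intervals at the TSS alone, SRC has 18 HepG2 lower-confidence centres spread over the gene, and BCL2 has none.

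PDGFA, PDGFRB and RET had no promoter interval in either line, but each had one further into the gene. PDGFA was in the HepG2 lists alone, with a high-confidence interval of 191 bp in an intron at 16096, chr7:543292-543482, which had no motif and a GC content of 61.78%. For the 3 PDGFA promoter motifs, the nearest high-confidence interval was this one in HepG2, and in K562 the nearest was 84.64 kb from the TSS.

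PDGFRB, the receptor that binds PDGF B-chain ligands, had 2 HepG2 high-confidence intervals in introns. One of them, chr5:149517056-149517187, spans 132 bp, is centred at -121 from an internal TSS of a protein-coding transcript at 18408, and held 1 template-strand motif. The other, chr5:149518478-149518539, spans 62 bp and held none. HepG2 had 4 lower-confidence intervals in the gene, 1 of them only 3 bp wide. In K562 there was 1 lower-confidence interval, chr5:149495127-149495312, with its centre in the 3′ UTR, and it overlapped none of the HepG2 ones. The PDGFRB promoter also had the lowest CpG observed to expected ratio of the 9, at 0.2383 against a median of 0.5651 over all promoters. The highest was 0.8984, in HRAS.

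RET, the receptor for GDNF-family ligands, had 1 K562 lower-confidence interval, chr10:43601067-43601185, in an intron at 28609, and none in HepG2, where the nearest was 61.34 kb from the TSS. The intronic RET interval held 1 motif on the coding strand. So for both receptors a motif inside the gene was in an interval while the motifs of the promoter were not. These intronic motifs follow with their runs of G in capitals.
PDGFRB, chr5:149517131-149517162, plus strand: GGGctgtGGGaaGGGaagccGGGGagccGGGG
RET, chr10:43601145-43601170, plus strand: GGGGccgtGGGagagtGGGcgtGGGG

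BCL2, which blocks the release of cytochrome c from mitochondria, had no interval in any of the 4 lists over a window of 198.8 kb. The nearest K562 interval was 47.37 kb from the TSS in the lower-confidence list and 102.7 kb in the high-confidence list. In HepG2 the distances were 47.47 kb and 102.7 kb. Its promoter has 2 motifs, at -529 to -497 and at -383 to -349, a GC content of 60.76% and a CpG ratio of 0.8774, all within the range of the genes that had an interval. BCL2, PDGFA, PDGFRB and RET, without a promoter interval in either line, hold 11 of the 34 motifs. Among all genes, 45.6% had no promoter interval in either line, and 22.3% had a high-confidence one in both, as HRAS and HIF1A did.

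Over gene body and upstream region together, 4 of the 9 genes were in the K562 high-confidence list, against 38.3% of all protein-coding genes, and 7 were in the K562 lower-confidence list, against 54.3%. In HepG2, 6 were in the high-confidence list, against 34.9%, and 6 in the lower-confidence list, against 58.2%. The windows of these genes have a median of 54.75 kb, against 29.22 kb over all genes, and the part of window length in these counts was not tested. Of the 6 HepG2 high-confidence genes, HRAS and HIF1A had the interval in the promoter, and RB1, PDGFA, PDGFRB and SRC had it in the gene body. The RB1 one is centred at -66 from the TSS of RCBTB2 and is reached only by a transcript other than the main one. The 4 lists held 6, 12, 7 and 29 intervals in these genes for K562 high, K562 lower, HepG2 high and HepG2 lower confidence. Of the 6 K562 high-confidence intervals, 2 overlapped a HepG2 high-confidence one, and of the 7 in HepG2, 2 overlapped a K562 one. Over all intervals, those shares were 51.1% and 53.7%. Against the lower-confidence list of HepG2, 4 of the 6 K562 high-confidence intervals had a partner. In the reverse direction, 3 of the 7 HepG2 high-confidence intervals overlapped a K562 lower-confidence one. The same shares over all intervals were not computed, so these counts have no background and are not a result about the group. Between the lower-confidence lists, 6 of the 12 K562 intervals overlapped a HepG2 one, against 53.3% of all, and 6 of the 29 HepG2 intervals overlapped a K562 one, against 36.6%. The ones shared at high confidence were those at the TSSs of HIF1A and HRAS. A motif was held by 2 of the 6 K562 and 2 of the 7 HepG2 high-confidence intervals, against 32.6% and 20.6% of all intervals of those lists.

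Family members and pathway partners of the 9 genes, 17 in all, were examined in the same way. They were chosen with earlier results of these data known, so their shares are no evidence about such families. A promoter interval was found for 7 of the 17 in the K562 high-confidence list, 10 in the K562 lower-confidence list, 8 in the HepG2 high-confidence list and 10 in the HepG2 lower-confidence list. In K562 that is 41.2% and 58.8%, against 33.0% and 46.6% of all genes. The HepG2 shares were 47.1% in the high-confidence list, against 28.0%, and 58.8% in the lower-confidence list, against 46.5%. NRAS, another RAS gene, had only a K562 lower-confidence interval, of 118 bp. BCL2L1, which also blocks apoptosis, had high-confidence promoter intervals in both lines, unlike BCL2, and MCL1 had a high-confidence one in K562 and a lower-confidence one in HepG2.

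EPAS1 and ARNT, the other HIF subunits examined, were high-confidence in both lines, as HIF1A was. Of the MYB relatives, MYBL1 was high-confidence in both lines and MYBL2 lower-confidence in K562 and high-confidence in HepG2, so that neither had the K562-only state of MYB. YES1 and FYN, which are SRC family kinases, were high-confidence in both lines, and FYN had no motif in its promoter. RBL1, a pocket protein like RB1, was lower-confidence in K562 and high-confidence in HepG2, and RBL2 had no interval. Among the PDGF genes, PDGFC alone had a promoter interval, a HepG2 lower-confidence one of 121 bp. PDGFB, PDGFD and the receptor gene PDGFRA had none. GDNF and GFRA1, which encode a RET ligand and its co-receptor, had no promoter interval in either line, as RET had none. These states are descriptions of 1 merged list per line and threshold.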

How the data were processed

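The deposited files hold interval positions in bp, with no count, height or score. According to the methods, the authors used cutadapt 1.16 for trimming, BWA 0.7.15 for alignment (hg19), Picard 2.14.0 and samtools 1.6 for duplicate removal, MACS2 2.1.1 for peaks of each replicate (q below 0.05) and bedtools 2.26.0 for merging. Merged stretches can be narrower than any single peak. Depth per library is unknown.

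Intervals were compared here with GENCODE release 44 lifted to GRCh37, using Python 3.11.15 and an overlap of at least 1 bp. The main TSS was that of the MANE Select transcript for all 9 genes. Other genes without one used the next tagged transcript or the gene's 5′ end. Motifs were leftmost and non-overlapping per strand, and a run of at least 7 G can serve as more than 1 run. Motifs in overlapping promoters of neighbouring genes were counted for each gene. Overlap and nearest-interval functions equalled a direct search in 100% of 10000 simulated cases. The motif scan returned the planted motif, or none where none was planted, in 100% of 1000 simulated sequences. Those sequences held at most 1 motif, with loops of A and T only, so neighbouring motifs and loops with G were not tested.

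The 9 genes, the 17 relatives and the motif rules were chosen with earlier results of these data known, and 1 further relative is not reported here. All 9 genes are named, and a neighbour is named where an interval lies within 1 kb of its TSS or it overlaps a member's promoter. Input libraries, expression and open chromatin were not analysed here.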

Additional observations from a re-analysis of the deposited data

How the results depend on the processing

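The counts of genes with an interval in gene body plus upstream region were within 1.5 times the reported count under the upstream extension, TSS set, overlap, width and merging alternatives. So were the counts for promoter windows under the window, TSS, overlap and width alternatives, the overlaps between the lines under both other overlap rules, and the gene states under a width minimum of 50 bp, the alternative run for them. With the window set around any TSS, or with other windows or widths, the number of genes with a lower-confidence promoter interval ran from 3 to 6 in K562 and from 3 to 5 in HepG2. The counts of promoter motifs in intervals were not. For K562 high confidence, the 2 motifs became 4 within 100 bp of an interval, 15 with runs of 2 G, 0 with GGA blocks and 1 in the 1 kb upstream alone. For K562 lower confidence, the 3 became 5, 25 with runs of 2 G, and 1 in the 1 kb upstream. The 1 motif of HepG2 high confidence became 2 within 100 bp, 2 with loops of 1 to 12, 9 with runs of 2 G and 0 with GGA blocks. The 1 motif of HepG2 lower confidence became 4, 3, 21 and 0 in the same order. The number of the 9 promoters with a motif fell to 3 with GGA blocks. Other motif definitions change what is counted, since 82.4% of all promoters held a motif with loops of 1 to 12, 99.5% with runs of 2 G and 3.88% with GGA blocks.

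No paired analysis was possible because each list merges all replicates and no value per replicate comes with an interval. Leaving out each replicate in turn was not run, since the lists are merged. The lists differ in size (9205, 19249, 8805 and 28387 intervals for K562 high, K562 lower, HepG2 high and HepG2 lower confidence), and the number of replicates required differs between the lines.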
